A study of Gallus gallus with 6 samples.

Results

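The genes of the mitochondrial respiratory chain and ATP synthase were followed across 6 cultures of chicken neural crest cells. They were taken from the array annotation as every probe set with exactly 1 symbol that begins with NDUF, SDHA to SDHD, UQCR, COX4 to COX8 or ATP5. This gave 141 probe sets for 78 genes, of 38535 probe sets in the table and 13009 genes with a symbol of their own. A probe set is a group of short probes that together report on 1 transcript. Because the rule goes by the start of the symbol, it also takes in genes that help assemble the complexes without belonging to them, and these were kept apart as 24 probe sets for 13 genes.

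The cells were of Brown Leghorn background and had migrated out of explanted neural tubes (embryo stages 10 to 13) in the presence of retrovirus, and the explants were removed after 3 days. In 3 cultures, called v-Myb here, the introduced gene was v-Myb-L3,4A-HAER, for a v-Myb protein whose activity depends on 4-OH-tamoxifen and whose leucine zipper is changed. v-Myb is a viral, transforming relative of the transcription factor MYB. In the other 3, called N118D, it was v-Myb-L3,4A-N118D-HAER, which has a further substitution in the DNA-binding domain. Both groups received 4-OH-tamoxifen at 200 nM for 4 hours, and no culture went without it. The contrast therefore bears on transcripts whose level depends on that domain. The titles call the 3 samples of a group biological replicates, but whether each had its own pool of embryos is not stated. The p-values rest on the spread among these cultures, with each probe set's variance drawn towards a value shared by all tested probe sets. Levels are the authors' log2 values for each probe set. With 3 arrays in each group, their number sets how precise a difference can be.

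The respiratory chain carries electrons in the inner mitochondrial membrane. Complex I takes them from NADH and complex II from succinate, complex III passes them from ubiquinol to cytochrome c, and complex IV hands them to oxygen. The proton gradient built on the way drives ATP synthase, also called complex V. Most subunits are encoded in the nucleus and the others in mitochondrial DNA, and the latter were not analysed here. In human melanoma cells the pigment cell factor MITF is known to raise PPARGC1A, a coactivator of respiratory chain genes, which makes these genes of interest in cells that can become melanoblasts.

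The respiratory chain genes were at nearly the same level in v-Myb and N118D cultures. Of 76 genes with at least 1 probe set bright enough to test, 33 were higher and 43 lower (56.6%) in v-Myb cultures, and 50.8% of all tested probe sets were lower. The differences ran from -0.16, for the complex I subunit gene NDUFS4, to 0.19, for the complex IV subunit gene COX5A, and 69 of the 76 lay within 0.1 of 0 on the log2 scale. In linear terms the extremes were 1.12-fold lower and 1.14-fold higher. The median difference over the 76 genes was -0.011, against -0.0018 over all tested probe sets. Among 107 tested probe sets of these genes, limma gave an adjusted p under 0.05 for 0 and an unadjusted p under 0.05 for 0. Over all 16526 probe sets tested those shares were 0% and 1.91%, and the smallest unadjusted p of a member was 0.111, for NDUFAF4. The adjusted p of each member was 0.9999 in limma, adjusted by Benjamini-Hochberg across the whole tested table.

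A p that misses the threshold does not show that levels are alike, so the 95% confidence intervals of the differences are given as well. For 74 of the 76 genes the interval lay within 0.5 of 0 on the log2 scale, which is a change of 1.41-fold in either direction. The exceptions were NDUFS4 (-0.56 to 0.23) and the assembly factor gene NDUFAF6 (-0.58 to 0.27). Counted by probe set, 98 of 107 members (91.6%) had such an interval, against 64.0% of all tested probe sets. Bright probe sets are measured more tightly. Among those with a mean level of at least 10 the shares were 98.4% of 64 members and 84.2% of all 4006. Members also varied little over the 6 arrays, with a median range of 0.21 against 0.42 for all tested probe sets. A list of mitochondrial carrier and import genes, given below, varied as little within groups. Among probe sets with a mean level of at least 10 the gap was smaller, with median ranges of 0.17 and 0.27. Levels above 10 were not matched between members and all tested probe sets.

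**Figure D1:**
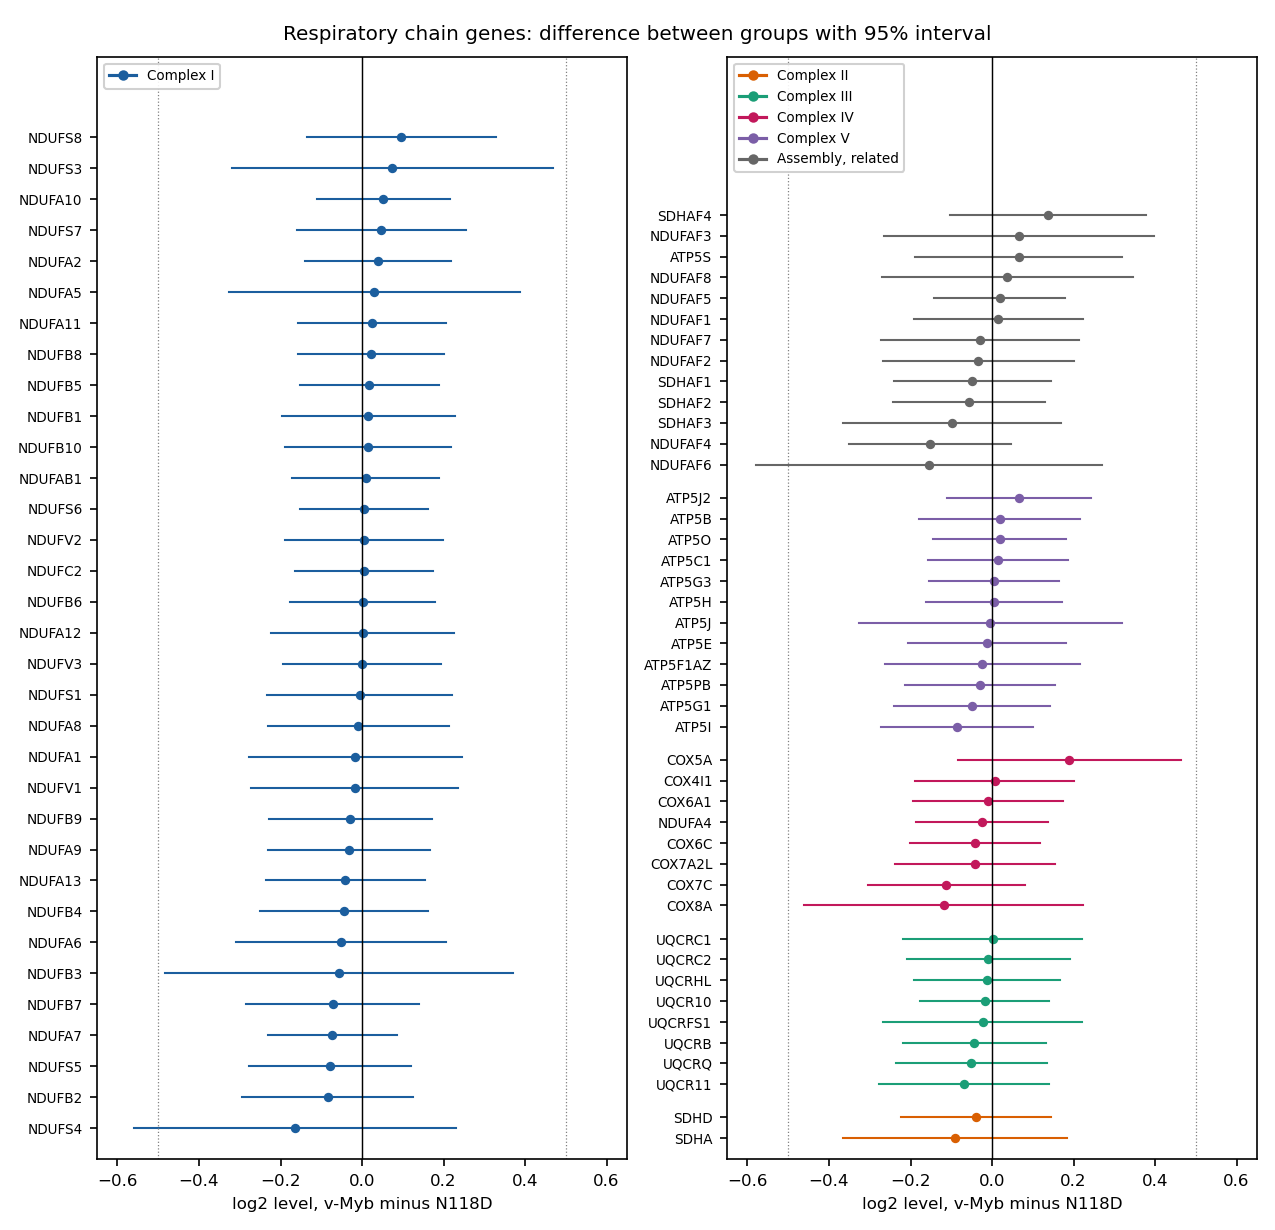
Difference in log2 level between v-Myb and N118D cultures for the 76 tested genes, each by its brightest tested probe set. Points are differences, bars are 95% confidence intervals from limma (n = 3 arrays per group), colours mark the complexes, and dotted lines stand at -0.5 and 0.5. Every bar crosses 0, and the bars of NDUFS4 and NDUFAF6 pass a dotted line.

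**Figure D2:**
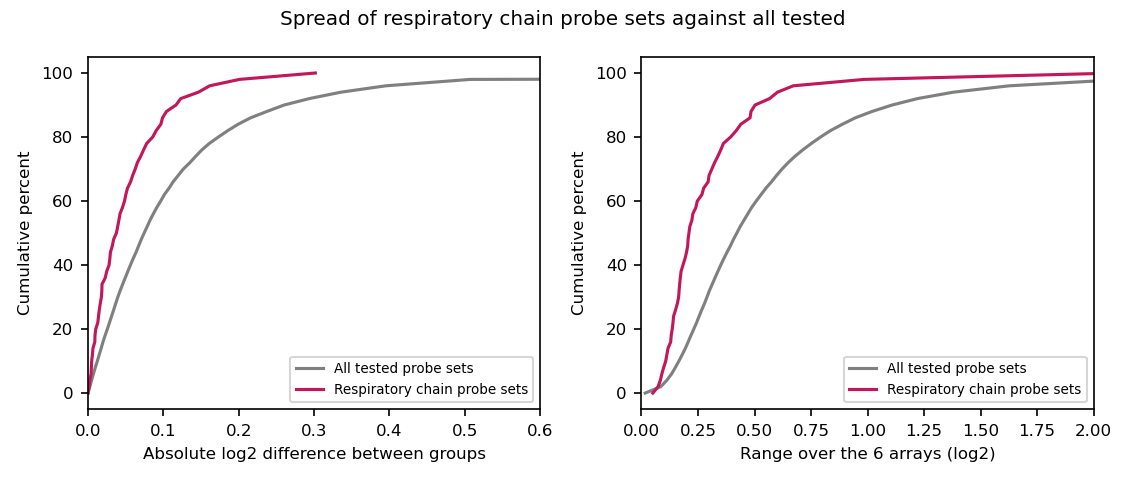
Cumulative percent of probe sets by absolute log2 difference between groups (left) and by the range of the log2 level over the 6 arrays (right). The line of the 107 respiratory chain probe sets lies to the left of that of all 16526 tested probe sets through most of both panels, with median ranges of 0.21 and 0.42, and the axes end before the highest values of all probe sets. The lines are not matched for level.

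Complex I, the NADH dehydrogenase, was represented by 33 tested genes, 18 higher and 15 lower in v-Myb cultures, with a median difference of 0.0016. Of the 6 tested core genes, whose proteins carry flavin or iron-sulfur centres or form the catalytic arm, 4 were higher and 2 lower, between -0.018 and 0.097. The upper value belongs to NDUFS8, an iron-sulfur subunit, which had log2 levels of 11.34, 11.56 and 11.40 in v-Myb replicates 1, 2 and 3 and of 11.24, 11.33 and 11.44 in N118D replicates 1, 2 and 3. The groups overlapped, and the difference of 0.097 had a standard error of 0.094. NDUFV1, which binds NADH and flavin, was at 10.72, 10.94 and 11.01 in v-Myb and at 10.85, 10.87 and 11.00 in N118D cultures, a difference of -0.018 (standard error 0.10). Among the 27 accessory genes the differences ran from -0.16 to 0.053.

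NDUFS4 is an accessory subunit gene whose loss is known to cause complex I deficiency in human and mouse. By the brightest probe set of each gene, NDUFS4 varied most among the complex I genes. NDUFS4 levels were 9.31, 9.09 and 8.71 in v-Myb replicates 1, 2 and 3, and 9.26, 9.17 and 9.18 in N118D replicates 1, 2 and 3. The low value in v-Myb replicate 3 set the group apart in its mean alone, since the other v-Myb arrays lay on both sides of the N118D values. The difference was -0.16 with a standard error of 0.16, and 0.0014 without v-Myb replicate 3. NDUFAB1, the mitochondrial acyl carrier protein, stayed between 13.04 and 13.17 on all 6 arrays and differed by 0.0091.

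Complex II, succinate dehydrogenase, was represented by the flavoprotein gene SDHA and the membrane anchor gene SDHD, while SDHB and SDHC were not analysed here. SDHA was at 11.75, 11.63 and 11.62 in v-Myb and at 11.92, 11.56 and 11.79 in N118D cultures, a difference of -0.091 (standard error 0.11). N118D replicates 1 and 2 held both the highest and the lowest value. SDHD lay between 12.00 and 12.17 on the 6 arrays and differed by -0.039 with a standard error of 0.075.

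In complex III, the cytochrome bc1 complex, 1 of 8 tested genes was higher and 7 lower in v-Myb cultures, with a median difference of -0.020. The 7 were lower by small amounts, at most 0.069 below 0 for UQCR11, a small membrane subunit, whose standard error was 0.085. UQCR11 was at 12.58, 12.49 and 12.53 in v-Myb and at 12.68, 12.47 and 12.64 in N118D cultures, so the groups overlapped. The Rieske iron-sulfur protein gene UQCRFS1 was at 12.15, 12.14 and 11.92 against 12.20, 12.01 and 12.08, a difference of -0.023 (standard error 0.099). The core protein gene UQCRC1 had mean levels of 12.60 ± 0.10 and 12.60 ± 0.09 (SD, n = 3 each) on its brightest probe set, a difference of 0.0014.

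Complex IV, cytochrome c oxidase, had 8 tested genes, 2 higher and 6 lower, with a median difference of -0.034. NDUFA4 is counted here because its protein, first placed in complex I, was later assigned to complex IV. COX5A, a nuclear-encoded structural subunit gene, was at 8.10, 8.33 and 7.95 in v-Myb and at 7.90, 7.97 and 7.93 in N118D cultures. The v-Myb value of replicate 3 lay within the N118D range, and the difference of 0.19 had a standard error of 0.11 and a 95% interval of -0.083 to 0.46. Without v-Myb replicate 2 it was 0.088, and a separate COX5A probe set differed by -0.0040. COX8A, a small subunit, was at 11.00, 11.24 and 11.39 against 11.15, 11.35 and 11.49, a difference of -0.12 (standard error 0.14). In both groups the replicate 1 array was the lowest for COX8A.

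The forms of complex IV subunits that many tissues use were measured on bright probe sets. COX4I1 lay between 13.86 and 14.03 on the 6 arrays, COX6A1 between 13.75 and 13.89, and COX7A2L, which takes part in joining complexes into supercomplexes, between 11.88 and 12.05. Their differences were 0.0065, -0.0096 and -0.042. NDUFA4 had the narrowest range of these, from 14.48 to 14.56, and differed by -0.025. COX7C had every v-Myb array, at 14.13, 14.14 and 14.16, below every N118D array, at 14.37, 14.19 and 14.20. That difference was -0.11 with a standard error of 0.078, and a second COX7C probe set differed by -0.12 with groups that overlapped. COX7B had 1 probe set, which stayed between 2.56 and 2.79 and was not tested, and COX7A2 was left out because its probe set carries a further symbol. COX4I2, COX6A2 and COX7A1, forms known from lung or muscle, were not analysed here.

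ATP synthase, complex V, was represented by 12 tested genes, 6 higher and 6 lower, with a median difference of 0.0001. In the catalytic head, the beta subunit gene ATP5B was at 13.01, 13.06 and 12.86 in v-Myb and at 13.00, 12.93 and 12.94 in N118D cultures, a difference of 0.018 (standard error 0.081). ATP5F1AZ, the Z-linked copy of the alpha subunit gene, was at 13.85, 13.83 and 13.70 against 13.97, 13.70 and 13.79, a difference of -0.024 (standard error 0.097). Its highest value was on N118D replicate 1. On that array the brighter probe set of HINTW, a gene of the female-specific W chromosome, was at 13.79, with 14.40 to 14.65 elsewhere. A dim second HINTW probe set was at 4.26 there, with 4.21 to 4.79 on the other 5. The part of embryo sex in the ATP5F1AZ values was not tested.

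The ring of c subunits that turns as protons pass is encoded by several genes for 1 mature protein. ATP5G3 lay between 14.42 and 14.49 on the 6 arrays and differed by 0.0047, and ATP5G1 lay between 12.52 and 12.69 and differed by -0.050. ATP5G2 stayed between 2.19 and 2.23 and was not tested. ATP5I, the e subunit of the membrane part, was at 14.22, 14.25 and 14.21 against 14.41, 14.25 and 14.29, a difference of -0.086 (standard error 0.076). In the membrane part ATP5J2, the f subunit, was at 6.22, 6.26 and 6.28 against 6.23, 6.11 and 6.23, a difference of 0.065. ATP5J, coupling factor 6 of the peripheral stalk, was highest on v-Myb replicate 1 and lowest, at 5.92, on v-Myb replicate 3, while the N118D arrays lay between 6.13 and 6.17. The group means were 6.14 and 6.15 on its brightest probe set.

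Among the genes that share a prefix with the subunits but act in assembly or alongside the complexes, 6 of 13 were higher and 7 lower, with a median difference of -0.029. NDUFAF4, a complex I assembly factor, was at 10.19, 10.00 and 10.15 in v-Myb and at 10.30, 10.27 and 10.23 in N118D cultures. Every v-Myb array was below every N118D array, and the difference was -0.15 with a standard error of 0.081. NDUFAF6, another assembly factor for complex I, was at 7.94, 7.73 and 7.30 against 7.80, 7.89 and 7.74. Its difference of -0.15 rested on v-Myb replicate 3 and was 0.026 without it. SDHAF4, an assembly factor for complex II, was at 9.16, 9.45 and 9.30 against 9.10, 9.20 and 9.20, a difference of 0.14 (standard error 0.098). A second SDHAF4 probe set differed by 0.24 in the same direction with a standard error of 0.15, and the groups overlapped on both.

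The arrays of the 2 groups did not overlap for 5 of the 107 member probe sets (4.67%), against 5.74% of all tested probe sets. All 5 were lower in v-Myb cultures, a direction that 3.05% of all tested probe sets showed, while 0 members and 2.69% of all had every v-Myb array above every N118D array. Besides NDUFAF4 and COX7C they were for SDHAF2, NDUFA7 and ATP5J, with differences between -0.15 and -0.073. The other tested probe sets of SDHAF2, NDUFA7 and ATP5J had groups that overlapped. Of 25 genes with several tested probe sets, 13 had probe sets whose differences had opposite signs. These were ATP5G1, ATP5O, COX5A, COX6A1, NDUFA7, NDUFA10, NDUFA11, NDUFA12, NDUFB3, NDUFB4, NDUFS1, NDUFS6 and UQCRC1. The farthest from 0 among all tested members was a dim NDUFA12 probe set, at -0.30 with a standard error of 0.24, with 4.81 on N118D replicate 1 and 3.81 to 4.07 elsewhere, while the bright NDUFA12 probe set differed by 0.0016. It, the second SDHAF4 probe set and a dim ATP5O probe set at 0.20 were the 3 members that differed by at least 0.2, as 15.9% of all tested probe sets did, and 0 members differed by at least 0.5, against 2.06%.

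The complexes were then followed over single arrays, as the mean over a complex's genes of each gene's deviation from its own mean. This mean over all 76 genes was 0.0077, 0.019 and -0.049 in v-Myb replicates 1, 2 and 3, and 0.035, -0.040 and 0.027 in N118D replicates 1, 2 and 3. The lowest 2 arrays, v-Myb replicate 3 and N118D replicate 2, thus came from different groups. Complexes I, II, III and V were each lowest on those 2 arrays, and complex IV was lowest on v-Myb replicate 3 and next on v-Myb replicate 1. The mean over all 8571 tested genes was likewise lowest on v-Myb replicate 3, at -0.032. Complex II, with its 2 genes, ranged most widely, from -0.10 on v-Myb replicate 3 to 0.14 on N118D replicate 1, and complex IV ranged from -0.037 to 0.033.

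**Figure D3:**
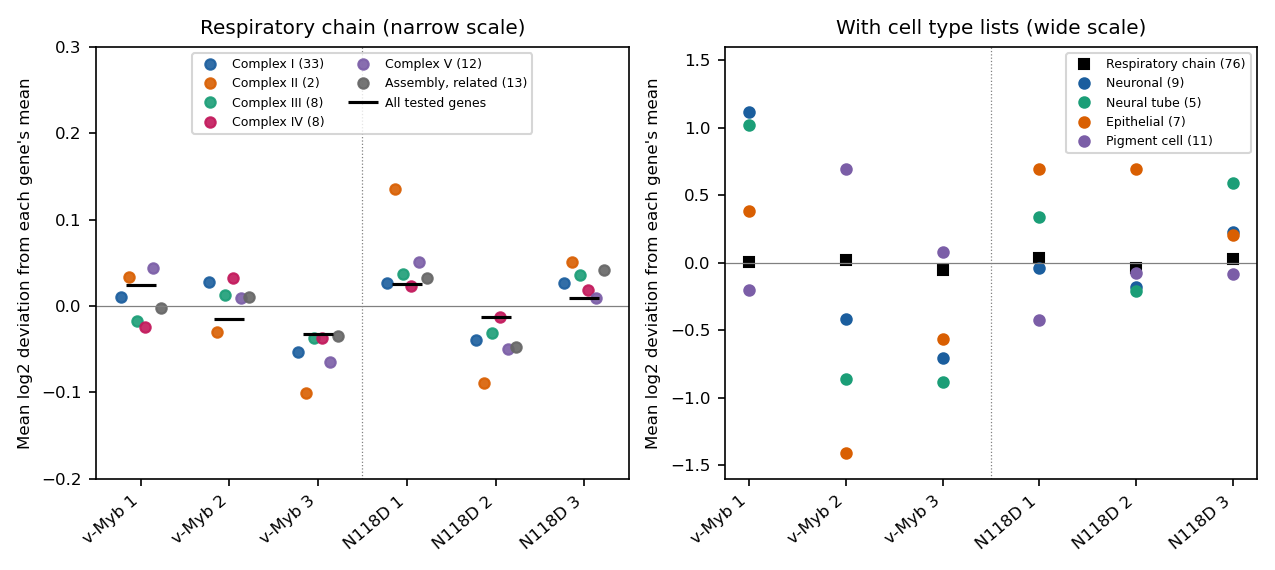
Mean log2 deviation of each gene group from its genes' own means, by array, with the number of genes in brackets. On the left the complexes lie between -0.10 and 0.14 and the black bars mark all tested genes, and on the right the 76 respiratory chain genes (squares) lie between -0.049 and 0.035 while cell type lists range from -1.41 to 1.12. The vertical scales of the panels differ, and so do the numbers of genes averaged.

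Mean levels of the marker lists for neurons, neural tube, epithelium and pigment cells had a wider range over the same arrays. These means rest on fewer genes than that of the 76 respiratory chain genes, and a mean over fewer genes can range more widely. Gene by gene, the median SD within groups was 0.78, 0.60, 0.76 and 0.38 in these lists, against 0.076 in the 76 genes. SOX10, a transcription factor of neural crest and pigment cells, lay between 11.03 and 11.92 on the 6 arrays, and the 11 tested pigment cell genes were all higher in v-Myb cultures, with a median of 0.38. Mean deviations of the pigment cell list were -0.20, 0.70 and 0.082 in v-Myb replicates 1, 2 and 3. They were -0.42, -0.077 and -0.081 in N118D replicates 1, 2 and 3, so v-Myb replicate 1 lay below N118D replicates 2 and 3. MITF, the pigment cell factor named above, was at 10.57, 11.65 and 11.22 in v-Myb and at 10.41, 11.13 and 10.90 in N118D cultures, a difference of 0.33 (standard error 0.32). All 7 tested epithelial genes were lower in v-Myb cultures, with a median of -1.10 and differences from -1.37 for DSP to -0.66 for KRT7, and ITGB4, with the smallest p, was at -1.27. The epithelial list mean was 0.39, -1.41 and -0.57 in v-Myb replicates 1, 2 and 3, and 0.69, 0.70 and 0.20 in N118D. On this mean v-Myb replicate 1 lay above N118D replicate 3, and v-Myb replicate 2 was the lowest array. The mean of the 9 neuronal genes was 1.12 above its overall mean on v-Myb replicate 1, against -0.71 to 0.23 elsewhere, and that of the 5 neural tube genes was 1.02 against -0.88 to 0.59. Of 6 tested muscle genes 4 were lower, and the 5 not tested reached between 1.86 for MYOG and 4.27 for DES. Of 3 tested blood genes 2 were higher, and of the 3 not tested LYZ reached no more than 2.11 and SPI1 was below the minimum of 4 on every array. The third, the red cell globin gene HBA1, was at 6.85 on N118D replicate 2 and at no more than 2.58 on the other arrays, and the respiratory chain mean on that N118D array was -0.040. Single markers with the smallest p were TUBB3, SYT1 and NEFL at 0.32, 0.10 and -0.27, SOX3, HES5 and FABP7 at -0.33, -1.43 and -0.32, ACTC1, ACTA1 and MYOD1 at -0.38, -0.40 and -0.19, PMEL, MLANA and DCT at 0.45, 0.53 and 0.38, and LCP1, PTPRC and CD74 at 0.85, 0.38 and -0.26. None of these markers passed the adjusted threshold in limma, and ITGB4, ACTC1, PMEL and LCP1 had an unadjusted p under 0.05. In these mixed cultures a change in the number of cells of a type and in RNA per cell cannot be told apart. The part of cell makeup in the small respiratory chain differences was not tested, and on the array with the highest neuronal mean the respiratory chain mean was 0.0077.

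Some probe sets of respiratory chain genes separated the arrays by replicate number and not by group. The clearest was a second probe set for UQCRC1, of the _a_at type, which was at 7.29 in v-Myb replicate 1 and 7.43 in N118D replicate 1. On the other 4 arrays it lay between 9.14 and 9.40, so the replicate 1 mean differed from theirs by -1.94 on the log2 scale, 3.83-fold lower, while the group difference was -0.10. On the brightest UQCRC1 probe set the replicate 1 arrays were also the lowest, but by 0.16, at 12.49 and 12.50 against 12.62 to 12.68.

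NDUFS1, the iron-sulfur subunit gene at the electron entry of complex I, had probe sets that separated the replicate 1 arrays in opposite directions. The brighter set of the _at type was at 10.35, 11.66 and 11.21 in v-Myb and at 10.75, 10.92 and 11.45 in N118D cultures, with both replicate 1 arrays lowest. The brightest set, of the _s_at type, was at 11.79, 11.65 and 11.64 against 11.83, 11.61 and 11.67, with both replicate 1 arrays highest. The group differences of these sets were 0.032 and -0.0061. The dimmer NDUFS1 set of the _at type, between 7.12 and 7.51, did not separate the replicate 1 arrays. Its group difference was 0.13 with a standard error of 0.11. A second UQCRC2 probe set was lower by 0.43 in the replicate 1 arrays, at 9.52 and 9.68 against 9.94 to 10.12, and the brightest NDUFB3 probe set by 0.41, at 10.12 and 10.25 against 10.54 to 10.64. That NDUFB3 set is of a type whose probes can also match other transcripts.

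Both replicate 1 arrays lay below the other 4 for 10 member probe sets (9.35%) and above them for 27 (25.2%), against 17.9% and 18.3% of all tested probe sets. A replicate 1 mean lower by at least 0.3 was measured for 5 members (4.67%) and for 13.1% of all tested probe sets. Shifts in the other direction were small in the 27 members, with a median of 0.13 and none above 0.29, reached by NDUFA5. Outside these 27, the dim NDUFA12 probe set had a replicate 1 mean higher by 0.46, with only N118D replicate 1 standing apart. The share of all tested probe sets with a replicate 1 mean higher by at least 0.3 was not counted. Leaving out both replicate 1 arrays, an alternative chosen after seeing the data, gave a median difference of -0.0029 over the 76 genes. The labels do not say what the cultures numbered 1 shared, and the cause was not tested.

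**Figure D4:**
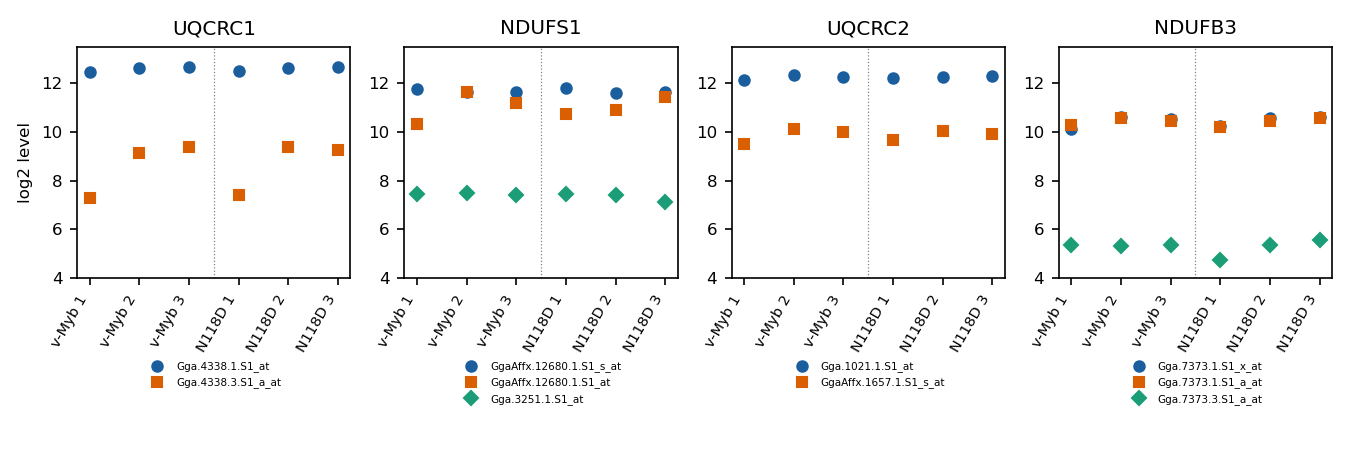
log2 level by array for the tested probe sets of UQCRC1, NDUFS1, UQCRC2 and NDUFB3, with v-Myb arrays left and N118D arrays right of the dotted line. The replicate 1 arrays of both groups sit lowest on the square-marked probe sets, with a difference of -1.94 for UQCRC1, and levels of different probe sets are not comparable with each other.

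Other mitochondrial genes, from lists named for their function, also had median differences near 0. Cytochrome c, CYCS, the carrier between complexes III and IV, was at 13.37, 13.36 and 13.24 in v-Myb and at 13.48, 13.36 and 13.33 in N118D cultures, a difference of -0.069 (standard error 0.080). In its list of 6 tested genes 3 were higher and 3 lower, with DHODH, a dehydrogenase of pyrimidine synthesis that feeds the chain, at 0.15 and ETFDH at -0.048. Of 20 assembly genes named otherwise than the members, 8 were higher and 12 lower with a median of -0.024, and LYRM7, COX20 and TMEM70, which act on complexes III, IV and V, differed by -0.14, -0.15 and -0.081. The groups did not overlap for 3 of the 20 (LYRM7, COX20 and SURF1), each with every v-Myb array lower. In either direction 5.74% of all tested probe sets did not overlap. Of 62 mitochondrial ribosomal protein genes 26 were higher and 36 lower with a median of -0.025, and MRPL22, MRPS6 and MRPS17 differed by 0.16, 0.10 and -0.10. Among these 62 genes the groups did not overlap for 3.

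Of 14 regulators of mitochondrial gene expression, 8 were higher and 6 lower with a median of 0.0080. PPARGC1A was near the floor of the tested range, at 4.76, 4.75 and 4.70 in v-Myb and at 4.80, 4.64 and 4.71 in N118D cultures, a difference of 0.017 (standard error 0.074). TFB1M and TFB2M, factors of mitochondrial transcription and ribosome modification, differed by -0.14 and -0.13, and the nuclear receptor gene ESRRG by -0.18. Every v-Myb array was below every N118D array for TFB1M, and above for POLRMT. TFAM, which packages mitochondrial DNA, differed by -0.073, and NRF1, a transcription factor for respiratory chain genes, by -0.23 with a standard error of 0.22. NRF1 reached 5.55 on N118D replicate 1, with 4.67 to 5.02 elsewhere. TFAM, NRF1, PPARGC1A and MITF were named for their roles after their values were seen.

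The citric acid cycle list held 16 tested genes, 8 of them higher, and its median was -0.0070. PDK1, a kinase that restrains pyruvate dehydrogenase, was at 10.67, 10.83 and 10.76 in v-Myb and at 10.65, 10.58 and 10.60 in N118D cultures, every v-Myb array above every N118D array, with a difference of 0.15 and a standard error of 0.075. The cycle enzymes IDH2 and MDH2 differed by -0.066 and -0.060. Of 16 glycolysis genes 7 were higher and 9 lower with a median of -0.0043, and LDHA, SLC16A1 and ENO2 differed by -0.27, 0.20 and 0.30. ENO2, the neuronal enolase, reached 7.03 on v-Myb replicate 1, with 5.89 to 6.28 elsewhere. The 15 carrier and import genes had a median of -0.0004, with 7 higher and 8 lower, and VDAC1, SLC25A5 and VDAC2 differed by -0.31, 0.085 and -0.036. VDAC1, an outer membrane channel, was lowest on v-Myb replicate 2, at 9.79, with 10.32 to 10.74 elsewhere. In these mitochondrial and metabolic lists 0 genes passed the adjusted threshold in limma and 0 had an unadjusted p under 0.05. The median SD within groups was 0.075 for carriers and import, 0.086 for mitochondrial ribosomal proteins, 0.092 for regulators and 0.11 for assembly genes. It was 0.14 for the citric acid cycle, 0.14 for glycolysis and 0.16 for the list of CYCS. The small spread of the 76 respiratory chain genes, at 0.076, was thus not particular to them.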

How the data were processed

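Each of 6 arrays measured RNA from 1 culture after labelling by in vitro transcription from 100 ng of total RNA, per the labels' protocols. The authors' deposited table holds log2 probe set levels, a scale read from their range, and the submitters' processing notes name GCRMA and Partek 6.4. GCRMA pulls dim probe sets towards a floor, which shrinks their differences. After 96 control probe sets were left out, 16526 of 38439 reached 4 on 3 or more arrays and were tested, two-sided, with limma 3.58.1 in R 4.3.3. The model held group alone, and p-values were adjusted by Benjamini-Hochberg across these probe sets. The fit was tested on simulated data. Gene symbols are those of the platform's annotation and may be outdated, and 140 of the 141 members matched a gene of the GRCg7b RefSeq table. A gene was represented by its brightest tested probe set. Differences are v-Myb minus N118D.

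Of the 34 untested member probe sets none exceeded 4.07, and 24 of their genes had another probe set that was tested. Named members were, per complex, those with the farthest differences in each direction and the widest range, those with several probe sets of opposite sign, and tissue forms. Members such as NDUFV1, NDUFAB1, ATP5B, NDUFAF4, COX7C, SDHAF2, UQCRC2 and NDUFA5 were named outside these rules, by role or by their values. Other lists gave up to 3 genes by smallest p, and further genes from them were named by role or by their values. Members, lists and rules were chosen with earlier results of these data known. Alternatives were other filters, normalizations, moderation, array weights, a replicate block, the mean of a gene's probe sets, and leaving out each array. Promoter motifs were not examined.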

Additional observations from a re-analysis of the deposited data

How the results depend on the processing

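In limma 0 members passed the adjusted threshold under any of the 14 alternatives run, with a smallest adjusted p of 0.712. Members with an unadjusted p under 0.05, of which the report counts 0, numbered 4 with no filter on dim probe sets (probe sets of ATP5J, NDUFA7, NDUFAF4 and UQCRB). With the filter off, the shared variance also changes for probe sets tested in the report, so these 4 need not be dim ones. The smallest of their p-values in limma was 0.016, for NDUFA7. Such members numbered 1 with both replicate 1 arrays left out (NDUFA9). They numbered from 0 to 2 when 1 array was left out, with 2 (COX5A and SDHAF4) without v-Myb replicate 3. The median differences over all members and over complexes I to V stayed within 1 SD between replicates of the reported values in all alternatives run. That SD is of a set's array means, and the bound is a weak check. Leaving out 1 of 3 arrays moves a set's mean difference by less than that SD, and several other alternatives barely change the values. Leaving out 1 array moved the median over all members between -0.033 and 0.010, with values above 0 without v-Myb replicate 3 (0.010) and N118D replicate 1 (0.0065), and those of complexes I and V between -0.027 and 0.020 and between -0.023 and 0.024. Median centring and array weights gave medians over all members of 0.0009 and 0.0014. Complexes II, III and IV had medians below 0 in all alternatives run, nearest to 0 at -0.013, -0.0058 and -0.019 (complex II without N118D replicate 1, III without both replicate 1 arrays, IV without N118D replicate 1). With the replicate number as a block 0 members passed, the smallest adjusted p was 0.9997, and the count over all probe sets at an unadjusted p under 0.05 went from 315 to 666. Same-numbered arrays deviated together for numbers 1 and 2 (r = 0.40 and 0.45 across probe sets, which are not independent) but not for 3 (r = -0.048), so the numbers were not taken as pairs. Over the tested members alone these correlations were 0.76, 0.41 and 0.49. Unlike numbers 2 and 3 correlated about as much over members, at 0.49 (v-Myb 2 with N118D 3) and 0.43 (v-Myb 3 with N118D 2). Over all probe sets these values were 0.052 and 0.42. Number 1 arrays against other numbers lay between -0.67 and -0.56 over members. Deviations were taken from each group's own mean, so they sum to 0 over its 3 arrays and these correlations are not independent of each other. A high value for number 1 pulls those with other numbers below 0. Single members were followed only for the 14 with the farthest differences or the widest range per complex and among assembly genes. Other members named in the text were not followed singly. Over the 196 alternative values of these 14 members, 16 changed sign and 0 moved by more than 1 SD. The latter count says little about stability. Leaving out 1 of 3 arrays cannot move a difference that far, and other filters, moderation or the replicate block leave it unchanged. The background correction could not be varied, since only processed values were used.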
